A study of Mus musculus with 36 samples.

Results

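Livers of Bmal1 knockout mice were compared with livers of wild-type mice at ZT16, where ZT counts hours after lights on, so that the samples were taken 4 h into the dark phase of a cycle of 12 h of light and 12 h of dark. The comparison holds 6 of the 36 libraries of the series, 3 per genotype, chosen by their labelled genotype and time, and covers the 13201 of 21654 listed genes that had enough reads to be tested. The series sampled both genotypes at 6 times of day, 4 h apart, with 3 mice per genotype and time. All mice were C57BL/6 with free access to food. The wild-type mice at ZT16 were 8, 6.4 and 10.9 weeks old and labelled male, male and female (replicates 1, 2 and 3). The knockout mice were 8, 13.9 and 10.9 weeks old and labelled male, male and female. The title places the knockout before birth, the protocol calls the mice cKO, and the labels name no Cre driver and no tissue to which the deletion is limited. Wild-type replicate 3 and knockout replicate 3 came from the same cage, and the other 4 mice from 4 different cages, each shared with mice of the same genotype taken at other times.

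BMAL1, encoded by the gene listed as Arntl, pairs with CLOCK or NPAS2 and activates genes that carry E-box sequences. Among these genes are the repressors of the period, cryptochrome and REV-ERB families, which feed back on the activators. REV-ERB proteins repress Arntl, Npas2 and Cry1 through elements that ROR proteins use for activation, and the D-box factors DBP, TEF and HLF pass the rhythm on to enzymes of the liver. Mice are active and feed mainly in the dark, when the liver makes fatty acids and cholesterol.

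The 6 libraries held 12777554 to 12839653 counts each, and 2 of them stood out. Wild-type replicate 3 is labelled female but had 1874 reads of Ddx3y, a gene on the Y chromosome, and 4 of Xist, the RNA that coats the silenced X. Knockout replicate 3, also labelled female, had 8 and 13582. Wild-type replicate 1 stood apart across genes: the SD of its log2 difference was 1.01 to wild-type replicate 2 and 0.920 to replicate 3, against 0.539 between those 2 and 0.597 to 0.730 between pairs of knockout libraries. Deviations from the gene mean over all 36 libraries were correlated with transcript GC content. Spearman's rho was -0.48, -0.19 and -0.43 in wild type and -0.56, -0.51 and -0.58 in knockout, so the knockout libraries were shifted further. By the same measure, rho ran from 0.16 to 0.46 in the libraries of ZT0 to ZT12 and was negative in all libraries of ZT16 and ZT20. Across 12903 genes with a GC value, rho between GC content and the log2 fold change was -0.28, and -0.02 once each library's own trend was removed. The median fold change ran from 0.14 (log2) in the lowest of 10 equal groups by GC content to -0.29 in the highest, and from 0.00 to -0.04 after removal. All these correlations are across genes and not across mice, and are descriptions. The total number of calls is therefore given from 4 fits: the counts as deposited, the counts with each library's GC trend removed, the counts without wild-type replicate 3, and both changes together. Gene list counts below come from the counts as deposited with all libraries, unless stated otherwise. List members were chosen with earlier results of these data known, so a share above that of all genes can follow from that choice. Lists also share members, so their counts are not independent.

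**Figure D1:**
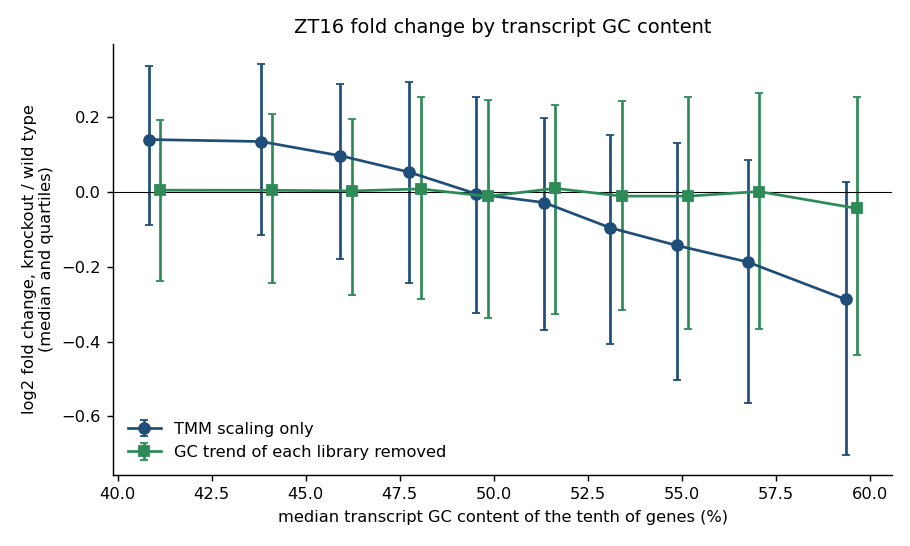
Log2 fold change of knockout over wild type at ZT16 (y axis; median as point, quartiles as bars) in 10 equal groups of 12903 genes ordered by transcript GC content (x axis, %), with TMM scaling alone (blue circles) and with each library's GC trend removed (green squares). The blue medians fall from 0.14 to -0.29, and the green medians stay between -0.04 and 0.01.

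Of the 13201 genes tested, 1136 (8.61%) differed between the genotypes at ZT16, 532 of them higher in knockout (4.03%) and 604 lower (4.58%). A gene was called at an adjusted p under 0.05 in edgeR's quasi-likelihood fit. Changes of at least 2-fold were seen in 221 of the genes called higher and 401 of those called lower. The CPM values (TMM-scaled) of the 2 genotypes did not overlap in 2259 genes (17.1%), of which 940 were also called. With the GC trend removed, 1182 genes were called, and 1086 when wild-type replicate 3 was left out as well. In all 4 fits, 645 genes were called (4.89%), 287 higher (2.17%) and 358 lower (2.71%). With both mice labelled female left out, 712 of 13363 genes were called (5.33%) from 2 males a side. The count was 2542 without wild-type replicate 1, 756 without replicate 2 and 999 without replicate 3, and 652, 837 and 663 without knockout replicate 1, 2 and 3. Calls that stood whichever of the 6 libraries was left out numbered 401, with 198 higher and 203 lower. With the labelled cage added to the fit as fixed terms, an alternative chosen after seeing the data that left 4 residual degrees of freedom, 26 genes were called, 24 of them among the 1136. Of the genes named below, Npas2, Lpl, Ntrk2, Sult1e1, Defb1, Loxl4, Grk5, Cyp2c55, Nat8 and the Y-linked Ddx3y and Eif2s3y were called in that fit, and every other ZT16 call named below ended. The Y-linked calls need to be read by library, because wild-type replicate 3 carried Y-linked reads under its female label. Both genes were lower in the cage fit, but above 0 from the males alone. With cage as a random block in limma voom, which estimated a correlation of -0.0907 within cages, 912 genes were called, against 945 by limma voom without it. Below, CPM values are listed in the order of replicates 1, 2 and 3, and fold changes are log2 values of knockout over wild type ± SE with adjusted p from edgeR.

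Within the clock itself, 2 of 21 genes were higher in knockout and 7 were lower, against 4.03% and 4.58% of all genes. In all 4 fits, 2 were higher and 5 lower. Arntl, the targeted gene, had 35.4, 18.4 and 20.5 CPM in wild type and 18.5, 20.6 and 15.2 CPM in knockout. The groups overlapped and no difference was called (-0.45 ± 0.25, adjusted p = 0.30). A count over the whole gene can hold reads from exons outside the deletion, so it is no check of the knockout at this time. Npas2 (ENSMUSG00000026077, mm9 chromosome 1, 39250576 to 39420079), the paralog of Clock, had 0.664, 0.1595 and 0.371 CPM in wild type and 17.8, 35.7 and 27.4 CPM in knockout. All 3 knockout libraries lay far above all wild-type libraries (6.10 ± 0.41, adjusted p = 1.4e-10). Cry1, a repressor of CLOCK:BMAL1, had 60.9, 35.3 and 36.8 CPM in wild type and 90.98, 94.7 and 76.5 CPM in knockout. Its knockout values did not overlap with wild type (0.98 ± 0.20, adjusted p = 0.0017).

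Lower were the REV-ERB gene Nr1d2, the period gene Per3, the repressors Bhlhe41 and Gm129 (Ciart), and the deubiquitinase gene Usp2. Nr1d2 had 70.9, 53.04 and 62.2 CPM in wild type and 12.2, 7.497 and 12.7 CPM in knockout (-2.53 ± 0.31, adjusted p = 3.2e-06). Per3 had 17.6, 48.6 and 34.3 CPM in wild type and 3.95, 6.997 and 4.04 CPM in knockout (-2.73 ± 0.33, adjusted p = 2.7e-06). Both fell in all 3 knockout mice to under the lowest wild-type value. Gm129 (ENSMUSG00000038550, mm9 chromosome 3, 95682426 to 95686174) had 4.08, 7.18 and 3.04 CPM in wild type and 0.0918, 0.0833 and 0.0749 CPM in knockout, which is 174 reads in wild type and 3 in knockout. The ratio was 57.5 in favour of wild type, with a 95% Clopper-Pearson counting interval of 19.4 to 281.5 (adjusted p = 0.00027). Bhlhe41 had 0.759, 2.07 and 1.48 CPM in wild type and 0, 0 and 0.0749 CPM in knockout, or 54 reads against 1, a ratio of 53.5 with an interval of 9.21 to 2153 (adjusted p = 0.00058). These intervals cover counting error and not the spread between mice. Usp2 had 10.1, 25.8 and 17.9 CPM in wild type and 2.75, 5.66 and 6.52 CPM in knockout and fell without overlap (-1.87 ± 0.39, adjusted p = 0.0026). The calls of Npas2, Cry1, Nr1d2, Per3, Gm129, Bhlhe41 and Usp2 stood in all 4 fits, in the males alone and without any 1 library.

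Tef and Per2 were called lower as deposited but not after GC removal (adjusted p = 0.053 and 0.062). Tef, a D-box factor, had 113, 183 and 171 CPM in wild type and 108, 107 and 95.6 CPM in knockout (-0.59 ± 0.18, adjusted p = 0.037), and Per2 had 43.5, 124 and 67.9 CPM in wild type and 24.97, 52.7 and 17.8 CPM in knockout (-1.33 ± 0.42, adjusted p = 0.045). The call ended for Tef with knockout replicate 1, 2 or 3 or wild-type replicate 2 or 3 left out (adjusted p from 0.071 to 0.19), and for Per2 with knockout replicate 1 or 3 or wild-type replicate 2 or 3 left out (adjusted p from 0.079 to 0.28). With these, the number of clock genes called lower was 10, 5 and 5 without wild-type replicate 1, 2 and 3 and 5, 6 and 5 without knockout replicate 1, 2 and 3. The remaining 12 genes were not called. Nr1d1, which encodes REV-ERBα, had 0.0948, 2.39 and 1.48 CPM in wild type and 0.0918, 0.416 and 0.2996 CPM in knockout (-2.27 ± 0.93, adjusted p = 0.13), with wild-type replicate 1 as low as the knockout. Dbp had 4.46, 8.21 and 5.27 CPM in wild type and 3.31, 4.08 and 3.37 CPM in knockout (-0.74 ± 0.31, adjusted p = 0.14), which is little in both genotypes at this time. Per1 had 5.12, 7.896 and 10.98 CPM in wild type and 1.56, 3.67 and 4.19 CPM in knockout (-1.34 ± 0.78, adjusted p = 0.32), and Wee1, a cell cycle kinase driven by the clock, had 0.664, 5.58 and 3.41 CPM in wild type and 0.459, 1.33 and 1.72 CPM in knockout (-1.46 ± 0.49, adjusted p = 0.062). Clock, Rora, Cry2, Nfil3, Hlf and Bhlhe40 had fold changes of 0.34, 0.23, -0.10, -0.12, -0.14 and -0.82. The sign of Hlf, Rora, Nfil3 and Cry2 turned under other settings, so none is given a direction.

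**Figure D2:**
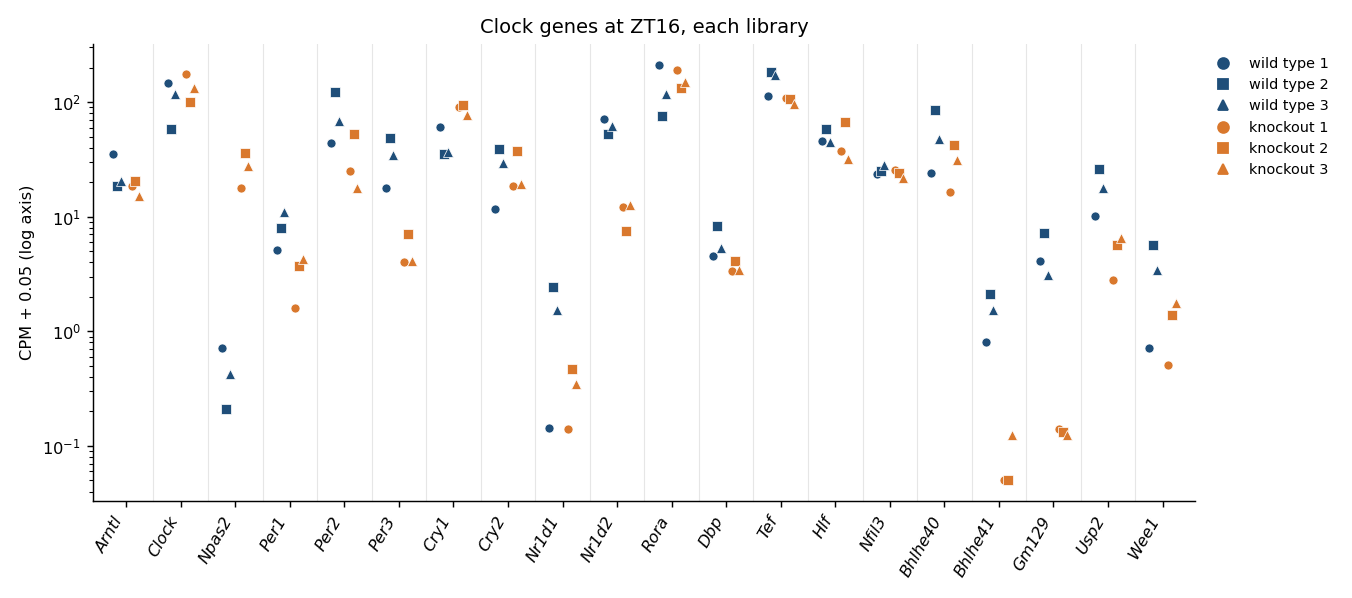
CPM + 0.05 (y axis, log scale) of 20 clock genes (x axis) in each of the 6 libraries at ZT16; blue is wild type, orange knockout, and circles, squares and triangles are replicates 1, 2 and 3. The knockout points of Npas2 and Cry1 lie above all wild-type points, and those of Per3, Nr1d2, Bhlhe41, Gm129 and Usp2 lie below them. Those of Tef, Per1 and Dbp lie below by a narrower margin, and Per1 and Dbp were not called. Of 21 clock genes, 3 were higher and 8 lower without overlap (17.1% of all genes did not overlap in either direction).

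Promoter windows of 4 of the called genes are shown for the E-box and D-box letters they hold, the sequences that CLOCK:BMAL1 and the D-box factors bind. RefSeq promoters (GRCm38.p6, 250 bases before to 50 after each start) were found for 17 of the 21 clock genes. The E-box CACGTG, which reads alike on both strands, was in a promoter of 5 of the 17 (Per1, Cry1, Tef, Bhlhe41 and Gm129), against 8.09% of 27025 genes, counting a gene where any of its promoters held the letters, and 7.15% of 32851 promoters. The variant CACGTT, on either strand, was in 3 (Cry1, Cry2 and Nr1d1), against 5.44% of genes. The D-box TTATGTAA, searched on both strands, was in 1 (Per3), against 1.11%. The ROR response element, on either strand, was in 1 (Arntl), against 0.259%. Stretches 5′ to 3′ on the gene's strand follow, with the matches in capitals; in Cry1, the first is CACGTT on the opposite strand and the second the E-box.
Gm129 (Ciart), chr3:95882237-95882374, minus strand: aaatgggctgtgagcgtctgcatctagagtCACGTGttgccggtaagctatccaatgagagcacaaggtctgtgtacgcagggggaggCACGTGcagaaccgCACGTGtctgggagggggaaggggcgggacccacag
Bhlhe41, chr6:145865538-145865603, minus strand: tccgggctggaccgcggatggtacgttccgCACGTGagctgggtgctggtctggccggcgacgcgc
Cry1, chr10:85185079-85185163, minus strand: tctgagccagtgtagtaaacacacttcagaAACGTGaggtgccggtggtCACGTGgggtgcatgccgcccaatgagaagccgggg
Per3, chr4:151044786-151044900, minus strand: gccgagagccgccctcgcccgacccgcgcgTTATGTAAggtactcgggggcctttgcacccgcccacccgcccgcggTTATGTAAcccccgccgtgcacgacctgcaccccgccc
Gm129 carried 3 E-boxes and Bhlhe41 1, and both were nearly without reads in knockout. Cry1 carried an E-box too and was higher in knockout. Of the other clock genes with an E-box, Tef was called lower as deposited but not after GC removal, and Per1 was not called. Per3 was lower with no CACGTG in its promoters. Nr1d2, Usp2 and Per2 were called lower too and are not among the 5 genes with CACGTG, where 17 of the 21 clock genes could be searched. A match is a string of letters and not a measured binding site.

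Of 18 E-box target genes, 0 were higher and 8 were lower (0 and 6 in all 4 fits), against 4.03% and 4.58% of all genes. The median of the 18 was -1.33 (log2) against -0.01 over all genes. All 7 clock genes called lower above are among these 8, so the count is not a separate result. Beside the clock genes, the list held Tspan4, a tetraspanin, with 119, 80.2 and 79.96 CPM in wild type and 47.3, 39.2 and 24.2 CPM in knockout (-1.35 ± 0.22, adjusted p = 0.00016). The number lower was 12, 6 and 6 without wild-type replicate 1, 2 and 3 and 6, 7 and 6 without knockout replicate 1, 2 and 3. Of 14 genes that REV-ERB is known to repress, 6 were higher and 1 lower (5 and 1 in all 4 fits), against 4.03% and 4.58% of all genes. Their median was 0.31. Cry1 and Npas2, counted with the clock above, are among the 6. Lpl, the lipoprotein lipase that releases fatty acids from circulating triglyceride, had 134, 24.7 and 22.99 CPM in wild type and 1098, 1092 and 842 CPM in knockout (4.19 ± 0.51, adjusted p = 3.2e-06). Insig2, which retains the SREBP complex in the endoplasmic reticulum, had 286, 228 and 232 CPM in wild type and 1036, 878 and 824 CPM in knockout (1.87 ± 0.24, adjusted p = 6.6e-06). Avpr1a, the vasopressin receptor of hepatocytes, had 25.3, 28.7 and 21.8 CPM in wild type and 52.97, 85.2 and 67.2 CPM in knockout (1.43 ± 0.26, adjusted p = 0.00051). In each of these 3, every knockout library exceeded every wild-type library. Cdkn1a, the cell cycle inhibitor p21, was also called (2.62 ± 0.70, adjusted p = 0.019), a call that ended for Cdkn1a with knockout replicate 2 or wild-type replicate 2 or 3 left out (adjusted p from 0.054 to 0.10). Gys2, the liver glycogen synthase, was the member that fell, with 151, 310.2 and 119.5 CPM in wild type and 60.1, 86.9 and 63.6 CPM in knockout (-1.42 ± 0.20, adjusted p = 2.5e-05). The fold changes of Insig2 and Gys2 were 2.72 and -2.10 at ZT12, and 0.64 and -0.64 at ZT20.

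Of 12 targets of the D-box factors, 1 was higher and 4 were lower (0 and 4 in all 4 fits), against 4.03% and 4.58% of all genes. Por, the reductase that feeds electrons to all microsomal cytochromes P450, had 149, 153 and 123 CPM in wild type and 37.8, 55.6 and 47.6 CPM in knockout (-1.62 ± 0.29, adjusted p = 0.00049). Cyp2a5, a coumarin hydroxylase, had 1690.2, 2309 and 849.7 CPM in wild type and 240.1, 345 and 318 CPM in knockout (-2.44 ± 0.35, adjusted p = 3.4e-05). The groups did not overlap for either gene, and both calls stood without any 1 library. Cyp2a5 has a near-identical neighbour, Cyp2a4, and reads shared between them can be assigned to either. Calls ended for Gstt2 with knockout replicate 1 or 2 or wild-type replicate 2 left out (adjusted p from 0.075 to 0.12), for Cyp2b10 with knockout replicate 2 or wild-type replicate 2 or 3 left out (adjusted p from 0.054 to 0.21) and for Cyp2a4 with wild-type replicate 1 left out (adjusted p = 0.59). The fold change of Por was -1.44 at ZT12 and 0.05 at ZT20.

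The largest increases, among genes called in all 4 fits with at least 1 as mean log2 CPM and no overlap, included Npas2 and Lpl. Ntrk2 (ENSMUSG00000055254, mm9 chromosome 13, 58907957 to 59235331), the receptor of the neurotrophin BDNF, had 1.42, 0.399 and 0.371 CPM in wild type and 23.4, 52.8 and 55.95 CPM in knockout (5.95 ± 0.72, adjusted p = 3.2e-06). Sult1e1, the estrogen sulfotransferase, had 4.65, 1.196 and 0.593 CPM in wild type and 52.97, 289 and 45.6 CPM in knockout (5.94 ± 1.004, adjusted p = 0.00025). Knockout replicate 2 was the highest for Sult1e1, and the lowest knockout library was still above the highest wild type. Defb1, a beta-defensin, had 2.28, 0.1595 and 0.816 CPM in wild type and 29.6, 15.2 and 48.4 CPM in knockout (4.79 ± 0.53, adjusted p = 8.8e-07). Slc34a2, a sodium-phosphate cotransporter, had 0.664, 1.52 and 1.26 CPM in wild type and 22.2, 43.7 and 15.9 CPM in knockout (4.52 ± 0.74, adjusted p = 0.00017). Loxl4, of the lysyl oxidase family that crosslinks collagen, had 5.12, 0.638 and 1.19 CPM in wild type and 32.1, 50.1 and 37.6 CPM in knockout (4.15 ± 0.48, adjusted p = 1.9e-06). For Ntrk2, Sult1e1, Defb1 and Loxl4, as for Lpl, wild-type replicate 1 was the highest wild-type library. Grk5, a kinase of G protein-coupled receptors, rose by 3.87 ± 0.46, and Ndrg1 by 3.55 ± 0.40. Serpinb1a, an inhibitor of neutrophil proteases, rose by 3.50 ± 0.64, the secreted factor Wisp1 by 3.50 ± 0.45 and the matrix protein Npnt by 3.36 ± 0.41. All 12 calls stood without any 1 library. At the other 5 times the fold changes of these 12 genes were above 0 too, with 3.85 to 6.50 for Ntrk2, 5.36 to 9.75 for Sult1e1 and 0.68 to 3.18 for Serpinb1a.

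The largest decreases by the same rule included 2 acetyltransferase genes, a collagen and a peptidase. Nat8 (ENSMUSG00000030004, mm9 chromosome 6, 85780382 to 85782076) had 23.4, 62.6 and 62.2 CPM in wild type and 0.551, 0.666 and 0.375 CPM in knockout (-7.31 ± 1.09, adjusted p = 6e-05), and its neighbour Cml5 had 31.8, 71.4 and 51.4 CPM in wild type and 0.826, 1.58 and 0.449 CPM in knockout (-6.92 ± 1.01, adjusted p = 4.3e-05). The sequences of this pair are close, so that reads may be split between them. Col27a1, a fibrillar collagen, had 17.7, 230.4 and 216 CPM in wild type and 0.918, 2.42 and 1.12 CPM in knockout (-7.02 ± 0.96, adjusted p = 1.8e-05). Mme, the membrane peptidase neprilysin, had 64.6, 30.8 and 58.4 CPM in wild type and 2.66, 0.9996 and 2.996 CPM in knockout (-4.57 ± 0.47, adjusted p = 2.8e-07). Knockout values of these 4 genes reached at most 2.996 CPM, in Mme, while wild-type values were 17.7 CPM or more. Dct, dopachrome tautomerase of the melanin pathway, had 12.9, 7.18 and 10.5 CPM in wild type and 0.826, 0 and 0.824 CPM in knockout (-4.29 ± 0.97, adjusted p = 0.0049). Clec2h, a C-type lectin, had 39.2, 16.9 and 16.4 CPM in wild type and 2.11, 0.167 and 1.65 CPM in knockout (-4.10 ± 0.87, adjusted p = 0.0028). Adrb3, the β3-adrenergic receptor, had 2.75, 15.1 and 12.1 CPM in wild type and 0.918, 1.33 and 0.225 CPM in knockout (-4.09 ± 0.80, adjusted p = 0.0013), and the protease inhibitor Serpine2 had 4.93, 19.4 and 11.2 CPM in wild type and 0.734, 0.7497 and 0.899 CPM in knockout (-3.94 ± 0.59, adjusted p = 5.5e-05). Slc16a5, of the monocarboxylate transporter family, had 73.1, 17.2 and 10.7 CPM in wild type and 0.184, 0.833 and 7.64 CPM in knockout; its fitted value of -5.52 ± 0.93 exceeded the log2 ratio of the group means, -3.54. These calls stood without any 1 library. Those of Gsta1 and Cyp2a4 did not: they ended for Gsta1 with wild-type replicate 1 left out (adjusted p = 0.096) and for Cyp2a4 with wild-type replicate 1 left out (adjusted p = 0.59). Gsta1, a glutathione transferase, had 56.8, 3.51 and 2.08 CPM in wild type and 1.19, 0.7497 and 0.524 CPM in knockout, so its fall was mainly that of wild-type replicate 1.

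**Figure D3:**
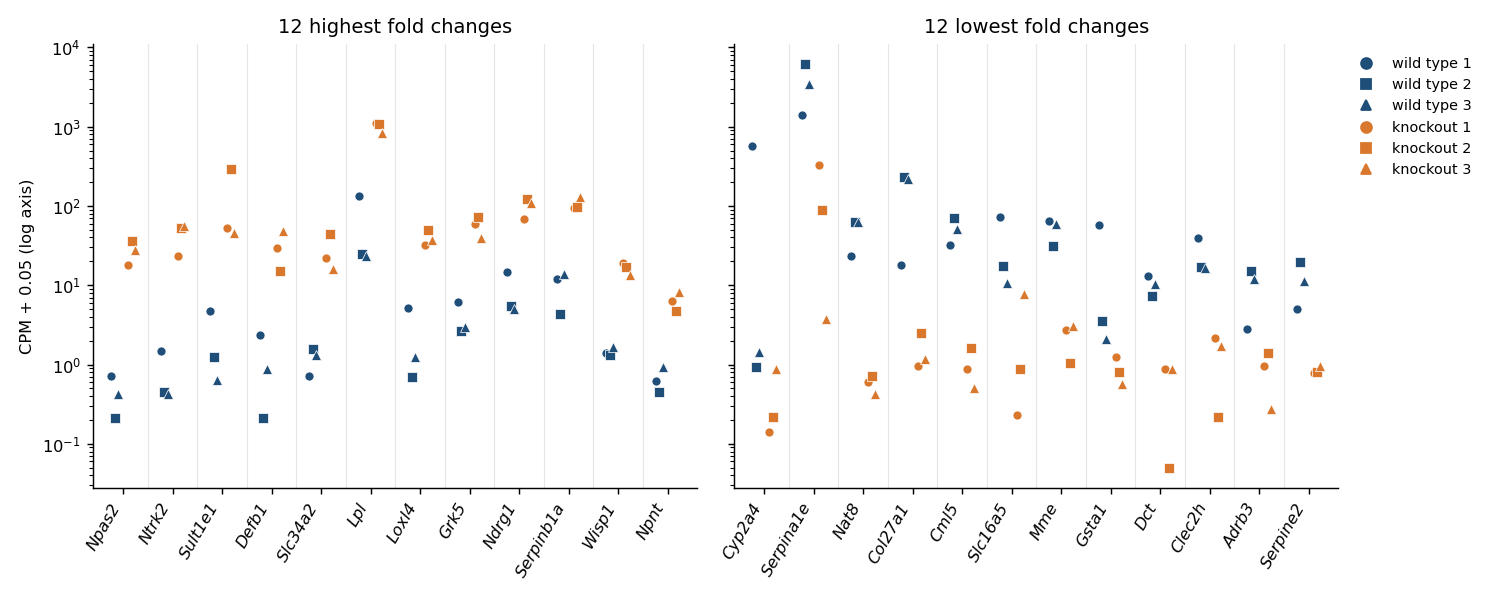
CPM + 0.05 (y axes, log scale) in each ZT16 library for the 12 highest (left) and 12 lowest (right) fold changes among genes called in all 4 fits without overlap; blue is wild type, orange knockout, and symbols are replicates 1 to 3. For Cyp2a4 and Gsta1, wild-type replicate 1 lies far above the other wild-type libraries.

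Of 22 lipogenic genes (fatty acid and triglyceride synthesis), 9 were lower in knockout, 0 were higher and 13 were not called. Over all genes 4.58% were lower and 4.03% higher. With the GC trend removed 7 of the 22 were lower, and 5 were lower in all 4 fits. Their median was -1.27 against -0.01 over all genes. Gpam, which starts glycerolipid synthesis, had 554, 422 and 278 CPM in wild type and 129, 194 and 150.3 CPM in knockout (-1.38 ± 0.31, adjusted p = 0.0046), and its call stood without any 1 library. Thrsp (ENSMUSG00000035686, mm9 chromosome 7, 104561448 to 104566240), a regulator of lipogenesis, had 3018, 2299.6 and 2294 CPM in wild type and 78.3, 283 and 141 CPM in knockout (-3.93 ± 1.02, adjusted p = 0.015). Fasn, fatty acid synthase, had 208, 572 and 166 CPM in wild type and 13.7, 116 and 52.96 CPM in knockout (-2.41 ± 0.75, adjusted p = 0.043). In all 3 genes the knockout lay below every wild-type library, and knockout replicate 1 was the lowest. Acacb, the acetyl-CoA carboxylase that restrains fatty acid oxidation, had 47.3, 76.3 and 48.9 CPM in wild type and 2.85, 11.4 and 12.1 CPM in knockout (-2.82 ± 0.72, adjusted p = 0.013). Lpin2, a phosphatidate phosphatase, and the desaturase Fads2 fell too (-1.39 ± 0.34 and -1.68 ± 0.44). Dgat2, of the last step of triglyceride synthesis, and Mlxipl, the transcription factor ChREBP, had smaller values of -0.55 ± 0.15 and -0.89 ± 0.28; neither these nor Fasn was called after GC removal (adjusted p = 0.16, 0.079 and 0.054). Pnpla3, a lipase, had 16.4, 4.39 and 0.668 CPM in wild type and 0.459, 0.7497 and 1.198 CPM in knockout, and its fold change turned to 0.71 with cage terms. Srebf1, which encodes SREBP1, was not called (-0.52 ± 0.48, adjusted p = 0.55). Neither was Scd1, the stearoyl-CoA desaturase (-2.53 ± 1.04, adjusted p = 0.14); it had 29042, 6284 and 3009 CPM in wild type and 965, 3572 and 2410.4 CPM in knockout, with wild-type replicate 1 far above the rest.

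The number of these lipogenic genes called lower was 9, 4 and 8 without wild-type replicate 1, 2 and 3 and 1, 10 and 3 without knockout replicate 1, 2 and 3. Calls ended for Thrsp with knockout replicate 1 or 3 left out (adjusted p from 0.070 to 0.084), for Fasn with knockout replicate 1 or 3 or wild-type replicate 2 left out (adjusted p from 0.16 to 0.27) and for Acacb with knockout replicate 1 or 3 or wild-type replicate 2 left out (adjusted p from 0.058 to 0.083). They ended likewise for Lpin2 with knockout replicate 1 or wild-type replicate 3 left out (adjusted p from 0.052 to 0.056), for Fads2 with knockout replicate 1 or 2 or wild-type replicate 2 left out (adjusted p from 0.056 to 0.14) and for Dgat2 with knockout replicate 1 or 3 or wild-type replicate 2 or 3 left out (adjusted p from 0.053 to 0.11), and for Mlxipl with knockout replicate 1 or 3 or wild-type replicate 2 or 3 left out (adjusted p from 0.19 to 0.26) and Pnpla3 with knockout replicate 1 or 3 or wild-type replicate 1 left out (adjusted p from 0.070 to 0.17). At ZT12 and ZT20, 10 and 9 of the 22 genes were lower. Thrsp had values of -3.83 and -3.76 there, Acacb of -2.19 and -2.90, and Fasn of -2.44 and -2.91.

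All 24 genes of cholesterol synthesis and SREBP2 targets had a fold change below 0, with a median of -0.91. But 3 of them passed the test (2 in all 4 fits), against 4.58% of all genes called lower. In 12, every knockout library was below every wild-type library (17.1% of all genes did not overlap in either direction). Insig1, an SREBP retention factor, had 911, 899.6 and 578 CPM in wild type and 185, 393 and 240.3 CPM in knockout (-1.55 ± 0.47, adjusted p = 0.039). Sqle, squalene epoxidase, had -1.52 ± 0.72 (adjusted p = 0.20). The number lower was 3, 1 and 5 without wild-type replicate 1, 2 and 3 and 0, 6 and 0 without knockout replicate 1, 2 and 3. The call ended for Insig1 with knockout replicate 1 or 3 or wild-type replicate 1 or 2 left out (adjusted p from 0.0504 to 0.17).

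**Figure D4:**
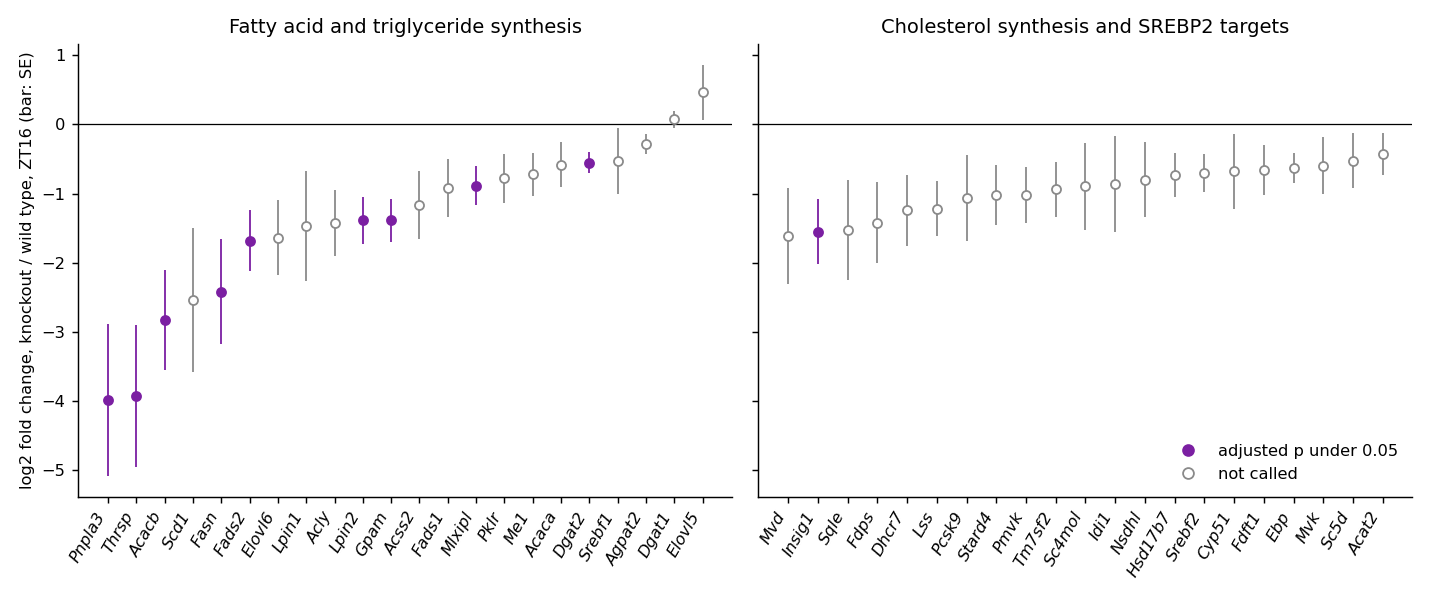
Log2 fold change of knockout over wild type at ZT16 (y axes; bars are SE) for 22 genes of fatty acid and triglyceride synthesis (left) and 21 of cholesterol synthesis (right). Filled purple points passed the test, 9 on the left and 1 on the right; 20 of 22 and 21 of 21 points lie below 0.

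Among 23 PPARα targets and other genes that oxidise fatty acids, 1 was higher and 5 were lower (0 and 3 in all 4 fits). Over all genes the shares were 4.03% and 4.58%. Slc25a20, the carnitine-acylcarnitine carrier of mitochondria, had 102, 128 and 119.8 CPM in wild type and 65.1, 72.5 and 65.2 CPM in knockout (-0.79 ± 0.19, adjusted p = 0.0090). This call stood without any 1 library. Ppara itself had 20.96, 57.02 and 51.03 CPM in wild type and 20.6, 11.4 and 19.1 CPM in knockout (-1.34 ± 0.39, adjusted p = 0.031), with wild-type replicate 1 at the knockout level. Calls ended for Ppara with knockout replicate 1, 2 or 3 or wild-type replicate 2 or 3 left out (adjusted p from 0.052 to 0.16), for Acaa1b with knockout replicate 1 or wild-type replicate 3 left out (adjusted p from 0.053 to 0.087), for Acot1 with knockout replicate 1, 2 or 3 or wild-type replicate 1 or 2 left out (adjusted p from 0.063 to 0.18) and for Vnn1 with knockout replicate 2 or 3 or wild-type replicate 3 left out (adjusted p from 0.057 to 0.18). The number lower was 4, 3 and 7 without wild-type replicate 1, 2 and 3 and 2, 4 and 3 without knockout replicate 1, 2 and 3.

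Glucose and glycogen genes, 20 in all, held 4 calls of a higher level and 2 of a lower one (3 and 2 in all 4 fits). Over all genes the shares were 4.03% and 4.58%. The calls of glycogen genes did not share a direction. While Gys2 fell, Ugp2, which makes the UDP-glucose that glycogen synthase uses, had 775, 453 and 499.7 CPM in wild type and 1383, 1132 and 1144 CPM in knockout (1.09 ± 0.18, adjusted p = 0.00017). Ppp1r3c, a subunit that targets protein phosphatase to glycogen, had 141, 114 and 60.01 CPM in wild type and 419, 423 and 288 CPM in knockout (1.86 ± 0.38, adjusted p = 0.0022). Gckr, the inhibitory protein of glucokinase, had 144, 161 and 132 CPM in wild type and 274, 267 and 270.1 CPM in knockout (0.89 ± 0.14, adjusted p = 0.00013). The knockout libraries were above all wild-type libraries in these 3 genes, and the 3 calls stood without any 1 library. Gyg, the glycogen primer glycogenin, had 0.87 ± 0.22, and the glucose transporter Slc2a2 had -0.87 ± 0.27. Their calls ended for Gyg with knockout replicate 1 or wild-type replicate 3 left out (adjusted p from 0.070 to 0.10) and for Slc2a2 with knockout replicate 1, 2 or 3 or wild-type replicate 2 left out (adjusted p from 0.0505 to 0.53). The insulin receptor substrate Irs1 rose by 1.17 ± 0.26 (adjusted p = 0.0037) and the transcription factor Foxo3 fell (-0.75 ± 0.17, adjusted p = 0.0046), the called members of 16 genes of insulin signalling. With 1 higher and 1 lower, this is about the share of all genes (4.03% and 4.58%) and no result about the group. Foxo3 was not called after GC removal (adjusted p = 0.073).

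Of 18 genes of bile acid and sterol handling, 5 were higher and 2 lower (4 and 1 in all 4 fits), and the median was 0.05. Over all genes the shares were 4.03% and 4.58%. Abcg8 and Abcg5, the subunits of the biliary sterol exporter, had 23.4, 37.2 and 21.7 CPM in wild type and 76.3, 92.9 and 50.3 CPM in knockout (1.40 ± 0.31, adjusted p = 0.0034) and 114, 79.5 and 50.1 CPM in wild type and 232, 188 and 172 CPM in knockout (1.28 ± 0.29, adjusted p = 0.0058). Abcb11, the bile salt export pump, had 606, 570.2 and 656 CPM in wild type and 874, 1002 and 1054 CPM in knockout (0.68 ± 0.16, adjusted p = 0.0074). Hsd3b7, an enzyme of bile acid synthesis, had 683, 617 and 656 CPM in wild type and 1174, 1075 and 979.9 CPM in knockout (0.72 ± 0.16, adjusted p = 0.0036). None of these 4 genes overlapped between the groups, and the 4 calls stood without any 1 library. Cyp7a1, the rate-limiting enzyme of bile acid synthesis, was not called and spread widely, with 247, 273 and 452 CPM in wild type and 89.2, 197 and 526 CPM in knockout (-0.42 ± 0.56, adjusted p = 0.70). The uptake carrier Slco1a4 was called higher (1.56 ± 0.48) and Cyp27a1 and Akr1d1 lower (-0.54 ± 0.17 and -0.84 ± 0.27). Those calls ended for Slco1a4 with knockout replicate 1, 2 or 3 or wild-type replicate 2 or 3 left out (adjusted p from 0.070 to 0.17), for Cyp27a1 with knockout replicate 1 or 3 or wild-type replicate 2 or 3 left out (adjusted p from 0.093 to 0.33) and for Akr1d1 with knockout replicate 1, 2 or 3 or wild-type replicate 1 or 2 left out (adjusted p from 0.054 to 0.29).

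Of 26 genes of drug metabolism, 5 were higher and 3 lower (4 and 3 in all 4 fits), against 4.03% and 4.58% of all genes. Por, Cyp2a5 and Cyp2b10 were counted among the D-box targets too. Cyp2c29 had 2279, 2194 and 1506 CPM in wild type and 5795, 7781 and 7583 CPM in knockout (1.85 ± 0.27, adjusted p = 3.7e-05), Cyp2c37 had 655, 624 and 829 CPM in wild type and 1966, 1909 and 2914 CPM in knockout (1.66 ± 0.24, adjusted p = 4e-05) and Cyp2c55 had 79.7, 12.8 and 12.5 CPM in wild type and 270.4, 320.2 and 358 CPM in knockout (3.23 ± 0.76, adjusted p = 0.0069). These 3 cytochromes of the Cyp2c family rose without overlap while Por and Cyp2a5 fell; members of this family are close in sequence, so the split of reads among them is uncertain. Sult1a1, a phenol sulfotransferase, was called lower (-1.58 ± 0.43), with 1513, 544 and 349 CPM in wild type and 171, 336 and 465 CPM in knockout. Its call ended for Sult1a1 with knockout replicate 1 or 3 or wild-type replicate 1 left out (adjusted p from 0.072 to 0.29). Of 20 targets of the oxidative stress factor NRF2, 3 were higher and 7 lower (1 and 6 in all 4 fits), against the same shares. The glutathione transferase Gstm3 had 15.2, 18.98 and 10.8 CPM in wild type and 30.2, 138 and 155 CPM in knockout (2.79 ± 0.55, adjusted p = 0.0014), and this call stood without any 1 library. Gsta3 had 7139, 3585 and 3731 CPM in wild type and 1687, 2364 and 2792 CPM in knockout (-1.09 ± 0.27, adjusted p = 0.0094) and Hmox1, heme oxygenase, had 15.6, 11.3 and 8.53 CPM in wild type and 5.69, 2.75 and 4.72 CPM in knockout (-1.48 ± 0.39, adjusted p = 0.018). Their calls ended for Gsta3 with knockout replicate 1 or wild-type replicate 1 left out (adjusted p from 0.061 to 0.075) and for Hmox1 with knockout replicate 2 or 3 or wild-type replicate 1 left out (adjusted p from 0.053 to 0.088). In this list the number lower was 3, 5 and 7 without wild-type replicate 1, 2 and 3 and 2, 2 and 5 without knockout replicate 1, 2 and 3, and the number higher was 4, 3 and 1 without wild-type replicate 1, 2 and 3 and 3, 1 and 2 without knockout replicate 1, 2 and 3.

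Of 15 chaperone genes, 4 were lower (4 in all 4 fits), 0 were higher and 11 were not called. Over all genes 4.58% were lower and 4.03% higher. Hspb1, a small heat shock protein, had 5.59, 17.7 and 20.03 CPM in wild type and 2.48, 1.08 and 1.05 CPM in knockout (-3.28 ± 0.43, adjusted p = 1e-05). Hspa4l, a co-chaperone of the HSP110 family, had 85.4, 62.2 and 74.03 CPM in wild type and 38.6, 31.9 and 32.8 CPM in knockout (-1.10 ± 0.15, adjusted p = 2.5e-05). In both, all wild-type libraries were above all knockout libraries, and both calls stood without any 1 library. The HSP90 gene Hsp90aa1 and Hsph1 fell as well (-0.81 ± 0.25 and -0.93 ± 0.29); these calls ended for Hsp90aa1 with knockout replicate 1, 2 or 3 or wild-type replicate 1 left out (adjusted p from 0.061 to 0.15) and for Hsph1 with knockout replicate 1, 2 or 3 or wild-type replicate 1 or 2 left out (adjusted p from 0.052 to 0.16). Hspa1b, the inducible HSP70 gene, was not called (-0.43 ± 0.499, adjusted p = 0.65). The number lower was 2, 3 and 5 without wild-type replicate 1, 2 and 3 and 2, 2 and 2 without knockout replicate 1, 2 and 3.

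Ribosomal protein genes had a median of 0.36, 1 of 30 lay below 0, and 5 were called higher (2 in all 4 fits), against 4.03% of all genes. Rpl37 had 180.2, 224 and 113 CPM in wild type and 249, 400.2 and 256 CPM in knockout (0.82 ± 0.18, adjusted p = 0.0032), and this call stood without any 1 library. Rps6 and Rps15 had fold changes of 0.41 and 0.46. The number higher was 21, 3 and 2 without wild-type replicate 1, 2 and 3 and 1, 1 and 6 without knockout replicate 1, 2 and 3, so most of these genes passed the test once wild-type replicate 1 was left out. Calls ended for Rps6 with knockout replicate 1 or 2 or wild-type replicate 2 or 3 left out (adjusted p from 0.079 to 0.18) and for Rps15 with knockout replicate 1 or 2 or wild-type replicate 2 or 3 left out (adjusted p from 0.11 to 0.22). Npm1, a nucleolar protein of ribosome assembly, had 225, 182 and 166 CPM in wild type and 344, 332 and 363 CPM in knockout (0.86 ± 0.17, adjusted p = 0.0016). It was the called gene among 24 of ribosome biogenesis, about the share of all genes called higher (4.03%) and no result about that group. Of 28 genes of oxidative phosphorylation, edgeR called 0 (1 at an unadjusted p under 0.05, and 1 called by DESeq2), and their median was -0.17.

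Among 22 acute phase and plasma protein genes, 3 were higher and 2 lower (1 and 2 in all 4 fits), against 4.03% and 4.58% of all genes. Saa4, the constitutive serum amyloid A, had 164, 625 and 523 CPM in wild type and 121, 141 and 66.2 CPM in knockout (-2.11 ± 0.33, adjusted p = 0.00010), while Cp, the copper carrier ceruloplasmin, had 1619, 1320.5 and 963 CPM in wild type and 3016, 2579 and 2461 CPM in knockout (1.05 ± 0.19, adjusted p = 0.00048). Both calls stood without any 1 library. The fibrinogen chains Fgb and Fgg had 0.61 ± 0.18 and 0.64 ± 0.20, and Orm3 had -2.44 ± 0.73. Their calls ended for Fgb with knockout replicate 1 or 2 or wild-type replicate 2 or 3 left out (adjusted p from 0.057 to 0.13), for Fgg with knockout replicate 1, 2 or 3 or wild-type replicate 2 or 3 left out (adjusted p from 0.059 to 0.21) and for Orm3 with knockout replicate 1 or 3 or wild-type replicate 2 left out (adjusted p from 0.11 to 0.40). Asl, the argininosuccinate lyase of the urea cycle, had 824, 889 and 708 CPM in wild type and 297, 319.9 and 321 CPM in knockout (-1.38 ± 0.23, adjusted p = 0.00017) and was apart in all libraries. Asns, asparagine synthetase, had 12.99, 4.31 and 4.896 CPM in wild type and 0.275, 0.167 and 1.498 CPM in knockout (-3.19 ± 0.76, adjusted p = 0.0079), and its call ended for Asns with knockout replicate 1 or 2 left out (adjusted p from 0.062 to 0.069). Stat5b, the signal transducer of growth hormone, had 31.5, 39.7 and 48.1 CPM in wild type and 60.5, 61.1 and 65.9 CPM in knockout (0.65 ± 0.15, adjusted p = 0.0045), and Fkbp5, a gene that glucocorticoids induce, had 49.9, 42.4 and 30.4 CPM in wild type and 11.9, 8.83 and 9.14 CPM in knockout (-2.10 ± 0.54, adjusted p = 0.014). The Asl and Stat5b calls stood without any 1 library; the last ended for Fkbp5 with knockout replicate 3 left out (adjusted p = 0.095).

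Markers of cell types are given as summed levels, and the sums were not tested. Hepatocyte markers summed to 27109 to 49591 CPM in wild type and 34283 to 42802 CPM in knockout. The sum of 16 endothelial markers was 304.8 to 341 CPM in wild type and 225 to 277 CPM in knockout, and all 16 had fold changes below 0. Their median was -0.48, and -0.36 with the GC trend removed. Of the 16, 3 were called lower (2 in all 4 fits), against 4.58% of all genes. Flt1, a VEGF receptor, had 12.04, 9.33 and 7.12 CPM in wild type and 3.76, 3.17 and 4.49 CPM in knockout (-1.32 ± 0.21, adjusted p = 0.00013), and its call stood without any 1 library, while Stab1 and Gpr182 had -0.88 ± 0.26 and -0.81 ± 0.24. Those 2 ended for Stab1 with knockout replicate 1, 2 or 3 or wild-type replicate 2 left out (adjusted p from 0.058 to 0.26) and for Gpr182 with knockout replicate 2 or 3 or wild-type replicate 1 or 2 left out (adjusted p from 0.056 to 0.17). Of 15 Kupffer cell markers, edgeR called 0 (2 at an unadjusted p under 0.05, and 1 called by DESeq2). They summed to 334 to 533 CPM in wild type and 215 to 346 CPM in knockout. Fold changes were below 0 in 14 of the 15, with a median of -0.52, and -0.42 with the GC trend removed. Cholangiocyte markers summed to 59.7 to 75.2 CPM in wild type and 94.8 to 151 CPM in knockout, and Spp1 made up most of each sum. Of the 6 tested, 2 were called higher, against 4.03% of all genes. Without overlap, 1 was higher and 1 lower (17.1% of all genes did not overlap in either direction), which is no result about the markers. Their median of 0.41 was -0.42 from the males alone. In that list Sox9, a transcription factor of bile duct cells, had 2.66, 7.02 and 2.23 CPM in wild type and 13.7, 20.4 and 6.44 CPM in knockout (1.73 ± 0.38, adjusted p = 0.0037) and Spp1, osteopontin, had 59.5, 62.8 and 53.3 CPM in wild type and 134, 110.1 and 80.2 CPM in knockout (0.88 ± 0.24, adjusted p = 0.023); Sox9 stood without any 1 library, and the Spp1 call ended for Spp1 with knockout replicate 1 or 2 or wild-type replicate 2 or 3 left out (adjusted p from 0.0505 to 0.13). Erythroid markers summed to 137 to 417 CPM in wild type and 72.6 to 96.8 CPM in knockout. Stellate cell markers summed to 252 to 768 CPM in wild type and 400.3 to 690 CPM in knockout, and lymphocyte markers to 8.77 to 23.4 CPM and 5.66 to 7.19 CPM. Fold changes were below 0 in all 5 erythroid and all 9 lymphocyte markers tested, and in 10 of 15 stellate markers. Adipocyte markers summed to 1469 to 2906 CPM in wild type and 1195 to 1835 CPM in knockout, with Plin1 and Lep at 0 in all 6 libraries; the 5 tested had fold changes below 0, and edgeR called 0 (3 at an unadjusted p under 0.05, and 2 called by DESeq2). Neutrophil markers summed to 0.558 to 5.12 CPM and 1.67 to 3.595 CPM, with Ngp and Camp at 0. Markers of pancreatic acinar cells summed to 23.8 to 27.96 CPM in wild type and 29.3 to 154 CPM in knockout, nearly all of it Cela1, an elastase gene, with Cpa1, Cpb1 and Try4 at 0 in all 6 libraries. In whole liver, fewer cells of a type and less RNA per cell cannot be told apart, and the part of these cells in the other results was not tested.

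A call in 1 stellate marker came from 1 library. Col1a1, the collagen of scar tissue, had 0.569, 1.99 and 0.445 CPM in wild type and 1.102, 1.25 and 111 CPM in knockout. It was called higher (4.73 ± 1.19, adjusted p = 0.011) from knockout replicate 3, and the call ended for Col1a1 with knockout replicate 3 or wild-type replicate 3 left out (adjusted p from 0.070 to 0.91); from the males alone the value was -0.15.

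Sex-biased genes need to be read by library, because the fitted values use the sex labels and wild-type replicate 3 carried Y-linked transcripts under a female label. Of 31 male-biased and Y-linked genes, 1 was higher and 12 were lower in the fit of all libraries (1 and 2 in all 4 fits). Over all genes the shares were 4.03% and 4.58%. From the males alone 2 were higher and 1 lower, and the median went from -2.09 to 0.54. The Y-linked Ddx3y had 186, 78.1 and 139 CPM in wild type and 257, 119.7 and 0.599 CPM in knockout; its fitted value of -5.89 ± 1.38 was 0.52 from the males (adjusted p = 0.41), and the log2 ratio of the means of the 3 libraries was -0.09. Mup7, a major urinary protein, had 220.2, 2186 and 4595 CPM in wild type and 6620.5, 858 and 25.02 CPM in knockout; the fit gave -6.24 ± 1.61 and the males gave 1.64 (adjusted p = 0.38). The number lower was 19, 13 and 2 without wild-type replicate 1, 2 and 3 and 9, 4 and 5 without knockout replicate 1, 2 and 3.

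Serpina1e, an α1-antitrypsin paralog high in males, had 1418, 6135 and 3429.8 CPM in wild type and 326, 88.5 and 3.75 CPM in knockout. In the 2 males a side its value was -4.19 (adjusted p = 0.0059), and in the fit of all libraries -7.98 ± 1.25, a call that stood without any 1 library. Moxd1, a monooxygenase-like gene listed as male-biased, had 0, 0.319 and 0.0742 CPM in wild type and 171, 8.25 and 0 CPM in knockout (8.56 ± 1.19, adjusted p = 3.4e-05; from the males 8.95), with 1 knockout male far above the other. The Moxd1 call ended in DESeq2 (4.91, adjusted p = 0.25) and without the sex covariate in edgeR (8.67, adjusted p = 0.12). Its value was 5.16 without knockout replicate 1, and with cage terms it turned to -1.53. Cyp4a12a, the androgen-dependent hydroxylase of male liver, had 160.0, 537 and 312 CPM in wild type and 103, 39.7 and 2.02 CPM in knockout. Its fitted value was -6.03 ± 1.502, and from the males it was -2.29 (adjusted p = 0.34). The Cyp4a12a call ended for Cyp4a12a with knockout replicate 2 or wild-type replicate 3 left out (adjusted p from 0.056 to 0.29).

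Of 25 female-biased genes tested, 2 were higher and 6 lower (0 and 6 in all 4 fits), against 4.03% and 4.58% of all genes. The 6 lower calls all ended without wild-type replicate 1. Cyp2a4, the steroid hydroxylase of female liver, had 576, 0.877 and 1.41 CPM in wild type and 0.0918, 0.167 and 0.824 CPM in knockout. Cyp17a1, another steroid hydroxylase, had 133, 10.6 and 3.49 CPM in wild type and 0.367, 1.08 and 3.67 CPM in knockout, and the thioesterase Acot3 had 45.9, 10.6 and 4.15 CPM in wild type and 0.0918, 0.9996 and 11.9 CPM in knockout. Wild-type replicate 1, labelled male and with 7 reads of Xist and 1957 of Ddx3y, was the highest of the 6 libraries for all 3. At the other 5 times, Cyp17a1 was between 2.21 and 12.6 CPM in 7 wild-type libraries labelled male and between 41.7 and 209.8 CPM in 8 labelled female, so its 133 CPM lay in the female range. Calls ended for Cyp2a4 with wild-type replicate 1 left out (adjusted p = 0.59), for Cyp17a1 with wild-type replicate 1 left out (adjusted p = 0.060) and for Acot3 with wild-type replicate 1 left out (adjusted p = 0.053). Without that library 0 female-biased genes were lower; the number was 0, 5 and 9 without wild-type replicate 1, 2 and 3 and 4, 4 and 3 without knockout replicate 1, 2 and 3. Hao2, a hydroxyacid oxidase, was higher (7.52 ± 1.11, adjusted p = 4.7e-05), with 0.284, 0 and 0.0742 CPM in wild type and 0.826, 1.33 and 63.7 CPM in knockout, and this call ended for Hao2 with wild-type replicate 3 left out (adjusted p = 0.13).

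**Figure D5:**
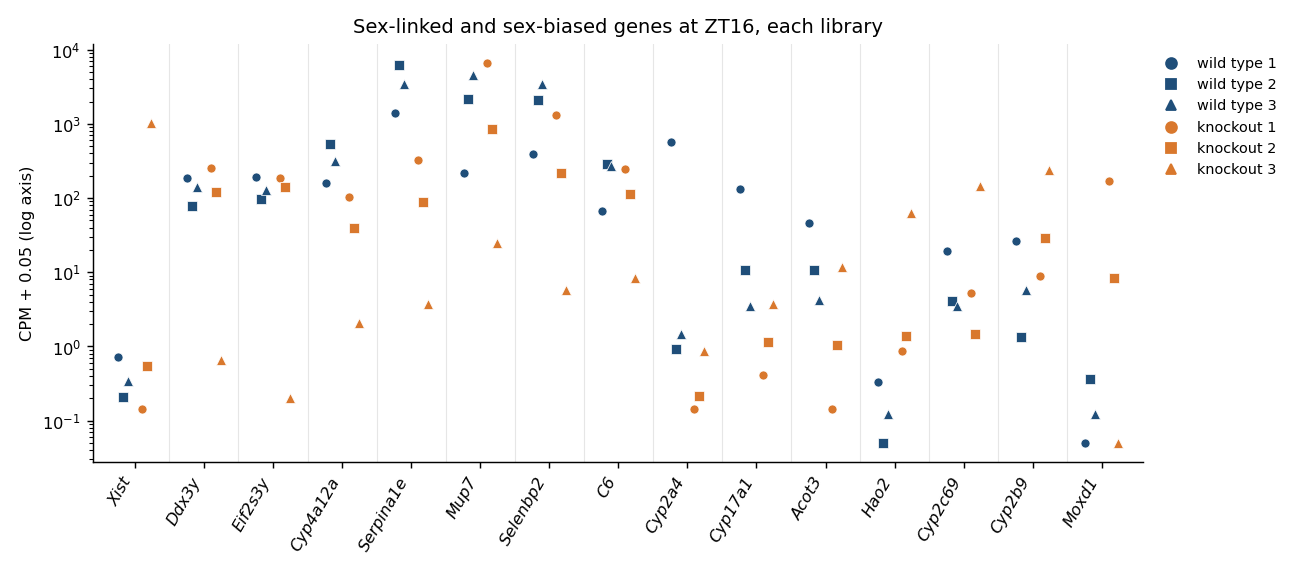
CPM + 0.05 (y axis, log scale) of 15 sex-linked or sex-biased genes (x axis) in each ZT16 library; blue is wild type, orange knockout, and circles, squares and triangles are replicates 1, 2 and 3. Wild-type replicate 3, labelled female, sits with the males for Xist, Ddx3y and Eif2s3y, and wild-type replicate 1 lies above the other 5 libraries for Cyp2a4, Cyp17a1 and Acot3.

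The difference at ZT16 was set against those at the other times of day, which used other mice of the same genotypes. Of the 1136 genes called at ZT16, 566 were called in the same direction at ZT12, which is 49.8% of the ZT16 genes and 35.96% of those called at ZT12. At ZT20, 272 were shared, or 23.9% and 61.0%. No other time had a call in the same direction for 433 genes, and 98 were called at all 5 other times; a missing call is not a test of a difference. That difference itself, ZT16 against the mean of the other 5 times, was called for 14 genes (0.106%). It was called for 23 genes against ZT12 (0.174%) and for 1 against ZT20 (0.00758%). The first count was 588 without wild-type replicate 1, 21 without replicate 2, 25 without replicate 3, and 7, 4 and 0 without knockout replicate 1, 2 and 3. At a count of 0, edgeR gave 1058 genes at an unadjusted p under 0.05; with all libraries, DESeq2 called 103. With cage terms edgeR called 0 in this difference, with 368 genes at an unadjusted p under 0.05.

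In all 4 fits, 6 genes differed from the other times, and without knockout replicate 3 none of them was called. Syt1 (ENSMUSG00000035864, mm9 chromosome 10, 107934706 to 108448038), the calcium sensor of vesicle release, had 6.64, 8.14 and 6.601 CPM in wild type and 28.6, 21.4 and 33.9 CPM in knockout and exceeded its mean difference at the other times by 1.36 (log2). Its fold changes were -0.23 ± 0.20 at ZT8 and 0.25 ± 0.20 at ZT12, and then 1.96 ± 0.21 at ZT16 and 1.40 ± 0.21 at ZT20. Gda, guanine deaminase, had 119, 76.01 and 87.01 CPM in wild type and 26.7, 26.4 and 35.1 CPM in knockout. Its fold change was -1.69 ± 0.16 at ZT16, against -1.11 ± 0.16 at ZT12 and -0.996 ± 0.16 at ZT20. Hspa4l had 0.13 ± 0.15 at ZT12, -1.10 ± 0.15 at ZT16 and -0.87 ± 0.15 at ZT20. The clock genes Arntl and Cry1 were also among them. Arntl went from 4.15 ± 0.33 at ZT8 and 2.45 ± 0.28 at ZT12 to -0.45 ± 0.25 at ZT16. Cry1 stood at 3.09 ± 0.21, 1.90 ± 0.20 and 0.98 ± 0.20 at ZT8, ZT12 and ZT16. In Npas2, which was called at ZT16 with 6.10 ± 0.41, the values were 10.31 ± 0.56 at ZT12 and 1.84 ± 0.29 at ZT20, and Nr1d2 had -3.31 ± 0.32 and -0.67 ± 0.30.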

How the data were processed

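Liver mRNA was measured by stranded sequencing in 36 mice. The authors' deposited table holds counts of sense-strand reads per gene. CASAVA, STAR 2.4.0f1 and the genome build mm9 were used per the submitters' processing notes, and the counting program, its annotation and its filters are not given in the sources used here. Totals of 12657858 to 12839653 per library are so alike that a common depth may have been set; no source used here records such a step.

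Counts were fitted with edgeR 4.0.16 in R 4.3.3 (TMM factors, filterByExpr with a minimum count of 10 and a minimum total of 15, quasi-likelihood fit with 12 group means and labelled sex) on all 36 libraries, so that ZT16 shares the spread of all groups. Adjusted p are Benjamini-Hochberg values over 13201 genes. GC content is the median over a gene's GENCODE M21 transcripts (GRCm38), matched by gene ID; a lowess curve with a span of 0.3 was removed from each library. Mice are separate animals, and replicates are numbered in accession order.

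Named genes were the clock list, the 12 largest increases and 12 largest decreases called in all 4 fits without overlap (mean log2 CPM of at least 1), up to 5 per list by smallest p, up to 6 each way for the difference from other times, and sex-biased genes; predicted genes were left out, except Gm129, and list members may be named whatever their test. Alternatives were DESeq2 1.42.0, its size factors in edgeR, other filters, no sex or an age covariate, ZT16 alone, limma voom, cage as a block, and each library left out. Some list members are counted but not reported by name. The members and lists were chosen with earlier results of these data known.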

Additional observations from a re-analysis of the deposited data

Results flagged for a closer look

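In 6 genes the difference between the genotypes at ZT16 departed from the mean of the differences at the other 5 times, by edgeR's interaction test in all 4 fits. Syt1 departed upward, by 1.363 (log2, adjusted p = 0.0105). The rest departed downward, and 4 of them are given here. Arntl had -1.514 (adjusted p = 0.0404) and Cry1 -1.113 (adjusted p = 0.041), both genes of the clock. Hspa4l had -0.9181 (adjusted p = 0.0356) and Gda -0.8732 (adjusted p = 0.041). The number of genes called in this test went from 14 with all libraries to 588 without wild-type replicate 1 and 0 without knockout replicate 3.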

How the results depend on the processing

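The labels carry no replicate numbers that pair mice across genotypes, but 5 of 20 cages held both genotypes. With cage as a replicate block of fixed terms in edgeR (4 residual degrees of freedom), 1136 calls at ZT16 became 26, and the differences against the other 5 times, ZT12 and ZT20 became 0 each, with 368, 622 and 224 genes at an unadjusted p under 0.05. In that fit the values of Moxd1, Cyp7a1 and Pnpla3 turned to -1.53, 0.044 and 0.71. With limma voom, 3 genes differed against ZT20, both with cage as a random block and with no block. The 1136 calls at ZT16 became 75 and 147 from the ZT16 libraries alone, with and without sex, where fewer libraries estimate the spread. They became 712 without both mice labelled female, 622 at a minimum absolute log2 fold change of 1, 157 from ZT16 and ZT20 alone, 2301 with GC removed and without wild-type replicate 1, and 652 to 2542 with each library left out. Without the sex covariate 784 genes were called at ZT16, 412 higher and 372 lower, against 532 higher and 604 lower with it. The split between higher and lower stayed within 10 points under DESeq2 size factors. The cause of these moves was not tested. The fits with cage, with limma voom, of ZT16 with ZT20 alone, and of GC removal without wild-type replicate 1, were chosen after seeing the data.

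For the difference against the other 5 times, 14 became 9 with DESeq2 size factors, 28 without a filter, 2 without sex, 30 with GC removed and without wild-type replicate 3, 1 without the mice labelled female, 103 in DESeq2, 332 with GC removed and without wild-type replicate 1, and 0 to 588 with each library left out. Against ZT12, 23 became 15 without sex, 98 in DESeq2, 114 with GC removed and without wild-type replicate 1, and 15 to 114 with each library left out. Against ZT20, 1 became 7 without a filter, 3 with age, 6 with GC removed and without wild-type replicate 3, 2 without the mice labelled female, 26 in DESeq2, 43 with GC removed and without wild-type replicate 1, and 1 to 29 with each library left out.

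Beside those 3, signs turned in 9 genes. From the males alone the values were -0.15 for Col1a1, 0.012 for Hlf, 0.028 for Nfil3, 0.13 for Cry2, 0.52 for Ddx3y, 0.20 for Eif2s3y, 1.64 for Mup7 and -0.36 for Xist. With GC removed and without wild-type replicate 3 they were 0.17 for Nfil3, 0.12 for Cry2, 0.53 for Ddx3y, 0.12 for Eif2s3y, 1.52 for Mup7 and -0.19 for Xist, and with GC removed alone 0.018 for Cry2. Mup7 had 0.10 without sex, and 0.026 and 0.061 from ZT16 alone with and without sex. With each library left out, Hlf ran from -0.50 to 0.023, Rora from -0.065 to 0.68, Nfil3 from -0.23 to 0.071, Cry2 from -0.50 to 0.30, Ddx3y from -7.21 to 0.68, Eif2s3y from -7.72 to 0.24, Mup7 from -6.97 to 1.99 and Xist from -0.068 to 10.83. Over 137 genes, 2207 values under alternatives kept their direction and side of the threshold, 754 lost the call and 11 gained it. Depth limits Bhlhe41, Gm129 and Nr1d1, whose knockout libraries held few or 0 reads.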

Other observations

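Further gene groups held calls at about the share of all genes (8.61%), so that their counts are no result about these groups. Of 20 genes of amino acid metabolism and the urea cycle, 0 were higher and 2 lower: beside Asl, the call was Sdsl, a serine dehydratase relative (-0.99 ± 0.28), which ended for Sdsl with knockout replicate 2 or 3 or wild-type replicate 1 left out (adjusted p from 0.11 to 0.11). Of 20 genes of the unfolded protein and integrated stress responses, Atf5, a transcription factor of that response, was higher with 91.5, 71.3 and 83.4 CPM in wild type and 136, 181 and 179 CPM in knockout and Asns lower; the Atf5 call ended for Atf5 with knockout replicate 2 or 3 or wild-type replicate 2 or 3 left out (adjusted p from 0.062 to 0.097). Of 15 genes of the growth hormone axis, Igfals, the partner that keeps IGF1 in the circulation, was lower with 50.6, 103 and 69.4 CPM in wild type and 27.9, 42.6 and 34.6 CPM in knockout, beside Stat5b, which was higher. The Igfals call ended for Igfals with knockout replicate 1 or 3 or wild-type replicate 2 left out (adjusted p from 0.070 to 0.15).

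Btg2, an antiproliferative gene that growth signals induce, was the called member of 18 immediate early genes, with 46.7, 9.89 and 15.1 CPM in wild type and 5.78, 4.33 and 8.91 CPM in knockout (-1.94 ± 0.48, adjusted p = 0.010). Wild-type replicate 1 held its highest value, and the call ended for Btg2 with knockout replicate 2 or wild-type replicate 1 left out (adjusted p from 0.057 to 0.12). Of 16 glucocorticoid-responsive genes, Sgk1, a kinase, was higher with 16.5, 8.53 and 10.8 CPM in wild type and 41.3, 42.8 and 27.4 CPM in knockout while Fkbp5 was lower; the Sgk1 call ended for Sgk1 with knockout replicate 1 or 2 or wild-type replicate 2 or 3 left out (adjusted p from 0.093 to 0.14). In the list of 13 hepatocyte markers tested, Foxa3, a transcription factor of hepatocytes, was lower with 127, 67.5 and 61.5 CPM in wild type and 41.2, 47.3 and 29.4 CPM in knockout, and the call ended for Foxa3 with knockout replicate 1, 2 or 3 or wild-type replicate 1 left out (adjusted p from 0.071 to 0.15). Alas2, of heme synthesis in red cells, was lower (-1.78 ± 0.52), and its call ended for Alas2 with knockout replicate 1 or 2 or wild-type replicate 3 left out (adjusted p from 0.081 to 0.41).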
